A study of Homo sapiens with 9 samples.

Results

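Interferon-stimulated genes are the genes that cells switch on when interferon binds its receptor, and 41 of them are described here. They were taken by gene name from the deposited table of counts and FPKM, which lists 32378 genes, and the rule sets no threshold on any value. All 41 were in the table, and all 41 passed the filter on low counts, so that each was tested.

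RNA was sequenced from SKOV3 cells, a line grown from a human ovarian tumour, as 9 libraries that form 3 equal groups. The cells of the first group received Carbo together with COM33, those of the second received Carbo, and those of the third were controls. From the title of the series, Carbo stands for carboplatin, a platinum compound that forms crosslinks in DNA, while COM33 is named by its code alone. Doses and times are not given in the labels, no group received COM33 without Carbo, and no library comes from cells to which interferon was added. The title and design ask how carboplatin and COM33 change gene expression, above all in the epithelial-mesenchymal transition and ERK signalling; interferon responses are not among the aims it names. The labels do not say whether libraries of a group came from separate cultures, so p-values here speak for the spread among these libraries alone, which may be technical.

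Type I interferons bind the receptor chains IFNAR1 and IFNAR2, whose kinases JAK1 and TYK2 phosphorylate STAT proteins, among them STAT2. STAT2 joins IRF9 in a complex, ISGF3, that binds a short DNA motif, the interferon-stimulated response element, near the starts of its target genes. The products of those genes hinder viruses at entry, RNA stability, translation and budding, and some feed back on the pathway itself; epithelial and tumour cells also transcribe many of them at a basal level without added interferon.

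Promoter sequences of 9 members are shown first, chosen among those called in a comparison below and holding a match to the response element; called members without a match, such as SAMD9L and IFI35, are not shown. RefSeq windows on GRCh38.p14, each with 250 bases before an annotated start and 50 from the start on, were searched on both strands for the core of the element, GAAA and again GAAA with 2 bases of any kind between them, which reads TTTC and TTTC when it lies on the opposite strand; overlapping matches were counted. Capitals mark the matches. The lines below run 5′ to 3′ on the strand of the gene, from 175 bases before the start to 4 bases after it, with the start base counted as 0, except the first line, which runs from next to the start of PARP9 to 3 bases past that of DTX3L, genes that are transcribed away from each other.
DTX3L and PARP9, chr3:122564301-122564341, plus strand: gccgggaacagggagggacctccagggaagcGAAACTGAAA
RSAD2, chr2:6877602-6877781, plus strand: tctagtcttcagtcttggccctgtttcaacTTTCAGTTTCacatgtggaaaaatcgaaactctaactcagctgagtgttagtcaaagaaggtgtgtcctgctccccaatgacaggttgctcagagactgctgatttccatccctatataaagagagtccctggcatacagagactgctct
ISG20, chr15:88638841-88639020, plus strand: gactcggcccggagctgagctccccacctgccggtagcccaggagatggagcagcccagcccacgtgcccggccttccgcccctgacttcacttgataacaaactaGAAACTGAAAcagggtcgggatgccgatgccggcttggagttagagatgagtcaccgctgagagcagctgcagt
IFIT3, chr10:89327822-89328001, plus strand: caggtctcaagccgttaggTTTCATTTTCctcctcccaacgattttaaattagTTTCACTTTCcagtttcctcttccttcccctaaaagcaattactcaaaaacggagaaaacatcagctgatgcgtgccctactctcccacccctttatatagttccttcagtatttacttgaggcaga
IFIT1, chr10:89392448-89392627, plus strand: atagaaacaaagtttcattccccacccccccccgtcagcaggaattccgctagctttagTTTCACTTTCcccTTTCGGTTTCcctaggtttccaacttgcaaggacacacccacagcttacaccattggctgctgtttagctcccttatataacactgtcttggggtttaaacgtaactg
OAS3, chr12:112938299-112938478, plus strand: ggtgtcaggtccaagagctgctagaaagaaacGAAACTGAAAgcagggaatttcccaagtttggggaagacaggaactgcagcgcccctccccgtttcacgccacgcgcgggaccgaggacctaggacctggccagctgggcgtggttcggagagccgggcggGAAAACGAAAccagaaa
IFITM1, chr11:313865-314044, plus strand: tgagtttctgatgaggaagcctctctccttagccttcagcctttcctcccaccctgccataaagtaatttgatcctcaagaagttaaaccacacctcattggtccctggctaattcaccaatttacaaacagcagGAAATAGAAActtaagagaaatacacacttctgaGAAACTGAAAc
ISG15, chr1:1013322-1013501, plus strand: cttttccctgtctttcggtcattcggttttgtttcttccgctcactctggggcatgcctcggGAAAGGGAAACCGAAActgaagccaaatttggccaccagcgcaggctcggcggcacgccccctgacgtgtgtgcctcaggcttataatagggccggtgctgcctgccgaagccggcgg

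The match between DTX3L and PARP9, at chr3:122564332-122564341, is the same 10 bases in both windows: it begins 6 bases before the start of DTX3L and runs across it, and, read on the other strand, it begins 41 bases before the start of PARP9. The 2 starts lie 38 bases apart. The windows shown for IFIT3 and IFIT1, neighbours on chromosome 10, each hold 2 matches on the opposite strand, and a second IFIT3 window, not shown, holds 2 more. In ISG15 the 2 matches overlap. RSAD2 has 2 windows, of which the downstream one holds the match shown.

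Of the 41 members, 33 had at least 1 window in the RefSeq table, and 23 of these held a match. By window, 27 of 44 member windows, 61.4%, held a match, against 1255 of all 35116 windows, 3.57%. The 10 members with a window and no match were IFI35, OAS1, DDX58, STAT2, IRF9, HERC6, SAMD9L, XAF1, CMPK2 and SP110, and the 8 members without a window were IFIT2, IFITM2, MX2, OAS2, OASL, IRF7, USP18 and TRIM22. A match is a description of letters, not a measured binding site. No relation between a match and direction was tested: in Carbo+COM33 vs Carbo the median log2 fold change was 0.17 over the 23 members with a match and 0.13 over the 10 with a window and no match.

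**Figure D1:**
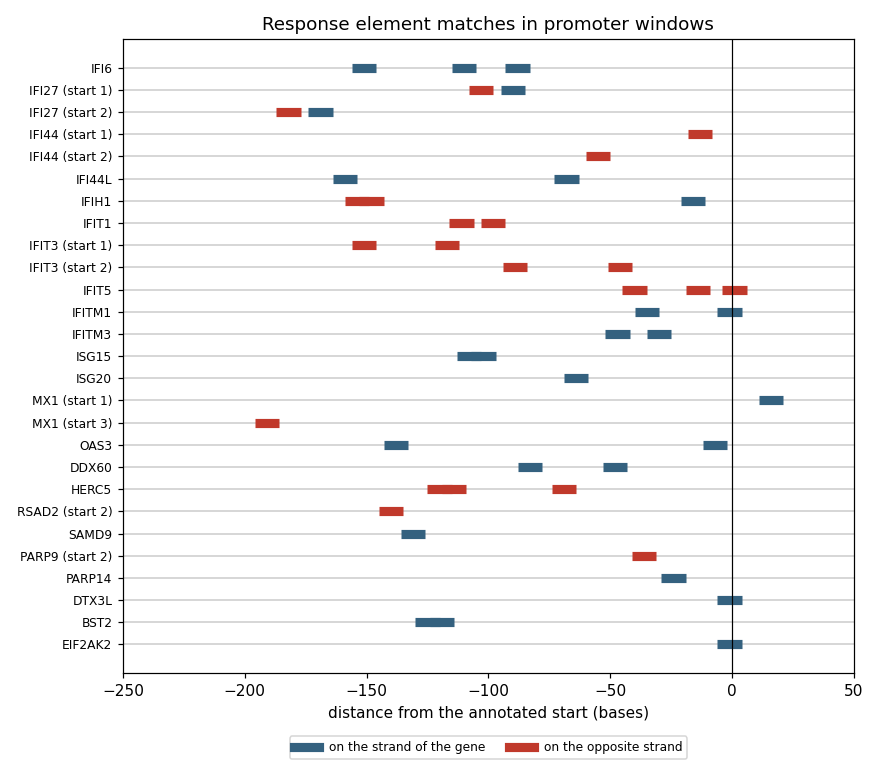
Matches to the response element core in RefSeq promoter windows of the members that hold one; the x axis is the distance from the annotated start in bases, blue bars lie on the strand of the gene and red bars on the opposite strand. The first bases of the matches lie between -196 and 11, and DTX3L, IFITM1 and EIF2AK2 each have one that begins 6 bases before it.

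Levels are given in FPKM, reads scaled for exon length and library depth, where genes are set against each other, and in CPM, counts scaled for library size, where 1 gene is followed across libraries. Total counts ran from 13851760 to 15533668 per library, and members took 0.145% to 0.168% of them. The mean FPKM of a member over all 9 libraries ran from 0.45 for XAF1 to 169 for IFITM3, with a median of 4.27, against 4.31 over the 16450 genes tested. Of the members, 7 lay under 1 FPKM, 20 between 1 and 10, and 14 at 10 or more. IFITM3, a membrane protein that blocks the entry of enveloped viruses, made up 21.9% to 35.5% of the summed FPKM of all members in a library. Next came ISG15, a ubiquitin-like modifier, at 86.7 FPKM, IFITM2 at 59.9, BST2 at 24.4 and IRF7 at 23.8. Neighbours in this order were often closer than their spread: BST2 had 17.6 ± 2.15 FPKM with Carbo+COM33, 29.2 ± 8.86 with Carbo and 26.3 ± 4.44 in control, and IRF7 had 23.4 ± 1.82, 22.8 ± 2.46 and 25.0 ± 3.19 (SD, n = 3 each). The smallest count of any member in any library was 14, for IFITM1.

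**Figure D2:**
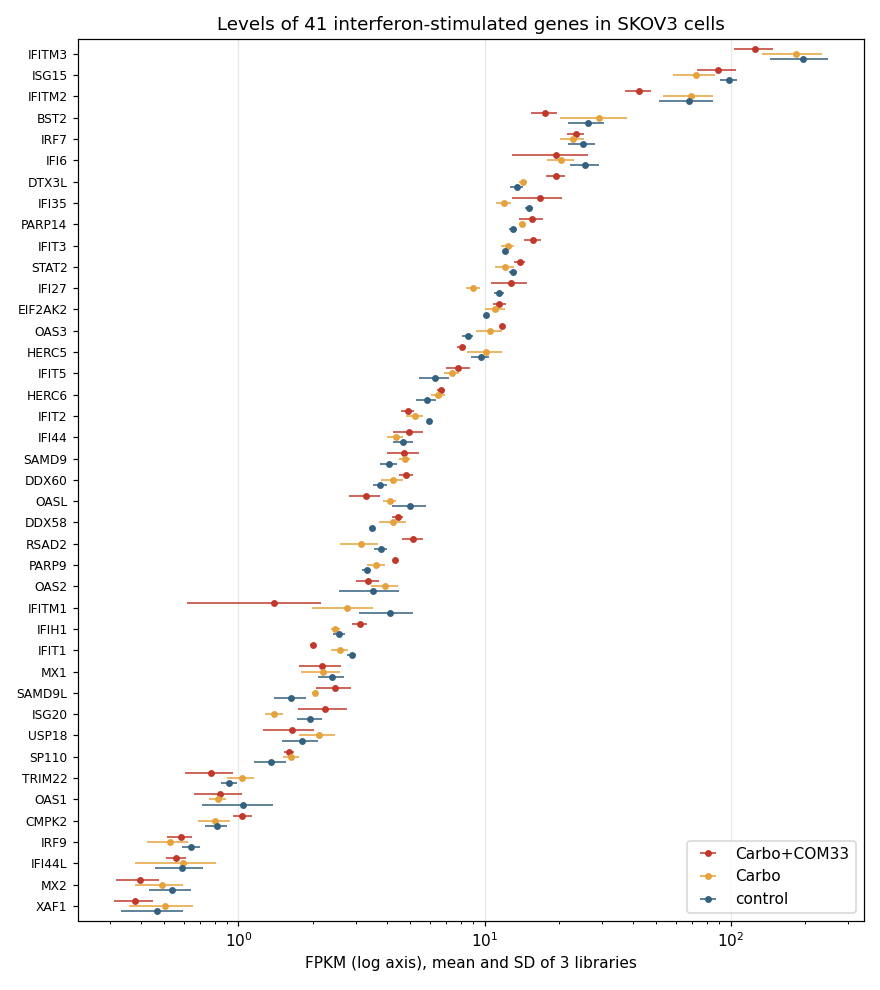
Mean FPKM (log axis) of the 41 members in Carbo+COM33 (red), Carbo (amber) and control (blue) libraries, with bars of 1 SD over 3 libraries, in order of the mean over all libraries. IFITM3 is highest at a mean of 169 FPKM and XAF1 lowest at 0.45, and the 3 groups lie close together beside that range.

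Libraries within a group differed by more than sampling noise, and some stood apart. By a chi-square of counts over genes, control 1 differed from the other controls by 10.6 and 14.2 per degree of freedom, against 3.37 between control 2 and 3. Carbo 1 differed from the other Carbo libraries by 15.3 and 26.9, against 5.84 between those 2, and Carbo+COM33 3 from its group by 14.1 and 12.1, against 3.26. Among the members, control 1 was the lowest of its group for 51.2%, against 38.0% of all genes tested, while Carbo 1 was the lowest for 36.6%, against 39.8%, and Carbo+COM33 3 for 39.0%, against 39.2%. Other libraries also differed from all genes here: Carbo+COM33 1 was the lowest for 48.8%, against 33.1%, and Carbo 2 for 41.5%, against 24.8%. Carbo 3 was the highest of its group for 53.7%, against 37.1%. Results below are given without such libraries where that changes them.

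The 3 comparisons share libraries, so their values are set side by side and not counted as support for each other. Adjusted p-values are from edgeR's quasi-likelihood test on counts, after Benjamini-Hochberg adjustment over all 16450 genes, and a gene is called under 0.05. Each log2 fold change stands with its standard error (SE).

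Changes among the members were modest and touched a minority of them. The main fit was that over all 9 libraries without a replicate block. In it, the members called against Carbo were all higher with Carbo+COM33, while those called against control lay on both sides. Against Carbo, 5 of the 41 rose and 0 fell, 12.2% of the members, where 4.96% of all genes were called; of all genes 2.43% rose and 2.53% fell. RSAD2, ISG20, IFI27, DTX3L and IFIT3 were the 5, with folds of 1.29 to 1.66. Each of the 5 was called in 11 to 18 of 22 alternative fits. IFITM2 and BST2, not called in the main fit, were called lower against Carbo in 12 and 9 of the 22, so the single direction depended on the fit. Against control, 5 rose (SAMD9L, DTX3L, OAS3, PARP9 and IFIT3) and 3 fell (IFITM1, OASL and IFIT1), 19.5% of the members, where 6.29% of all genes were called, 3.2% up and 3.09% down. The median log2 fold change of the members was 0.07 against Carbo, beside -0.01 over all genes, and 0.10 against control, beside -0.01. Positive values were found for 26 members and negative values for 15 against Carbo, and for 21 and 20 against control. The values of the groups did not overlap for 10 members that were higher and 3 that were lower than in Carbo, where 11.7% and 11.9% of all genes did so (23.7% in all), and for 15 higher and 7 lower than in control, where 14.3% and 14.4% did so (28.7% in all). Because whole cultures were sequenced, a lower level can be fewer cells with the transcript or less of it per cell, which cannot be told apart.

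These counts moved with single libraries, as did those over all 16450 genes tested. With 1 library left out, 120 to 2721 genes were called against Carbo and 114 to 2208 against control. Leaving out 1 library at a time gave 0 to 9 members up and 0 to 4 down against Carbo, the 0 up without Carbo 2, and 1 to 9 up and 0 to 6 down against control, with 1 up without control 2, control 3, Carbo+COM33 1 or Carbo+COM33 2, each of which also left 0 down. The highest counts came without Carbo 1, at 9 up and 4 down against Carbo and 8 up and 6 down against control, and without Carbo+COM33 3, at 9 up and 3 down against control. Without both control 1 and Carbo 1 there were 9 up and 4 down against Carbo and 8 up and 5 down against control.

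**Figure D3:**
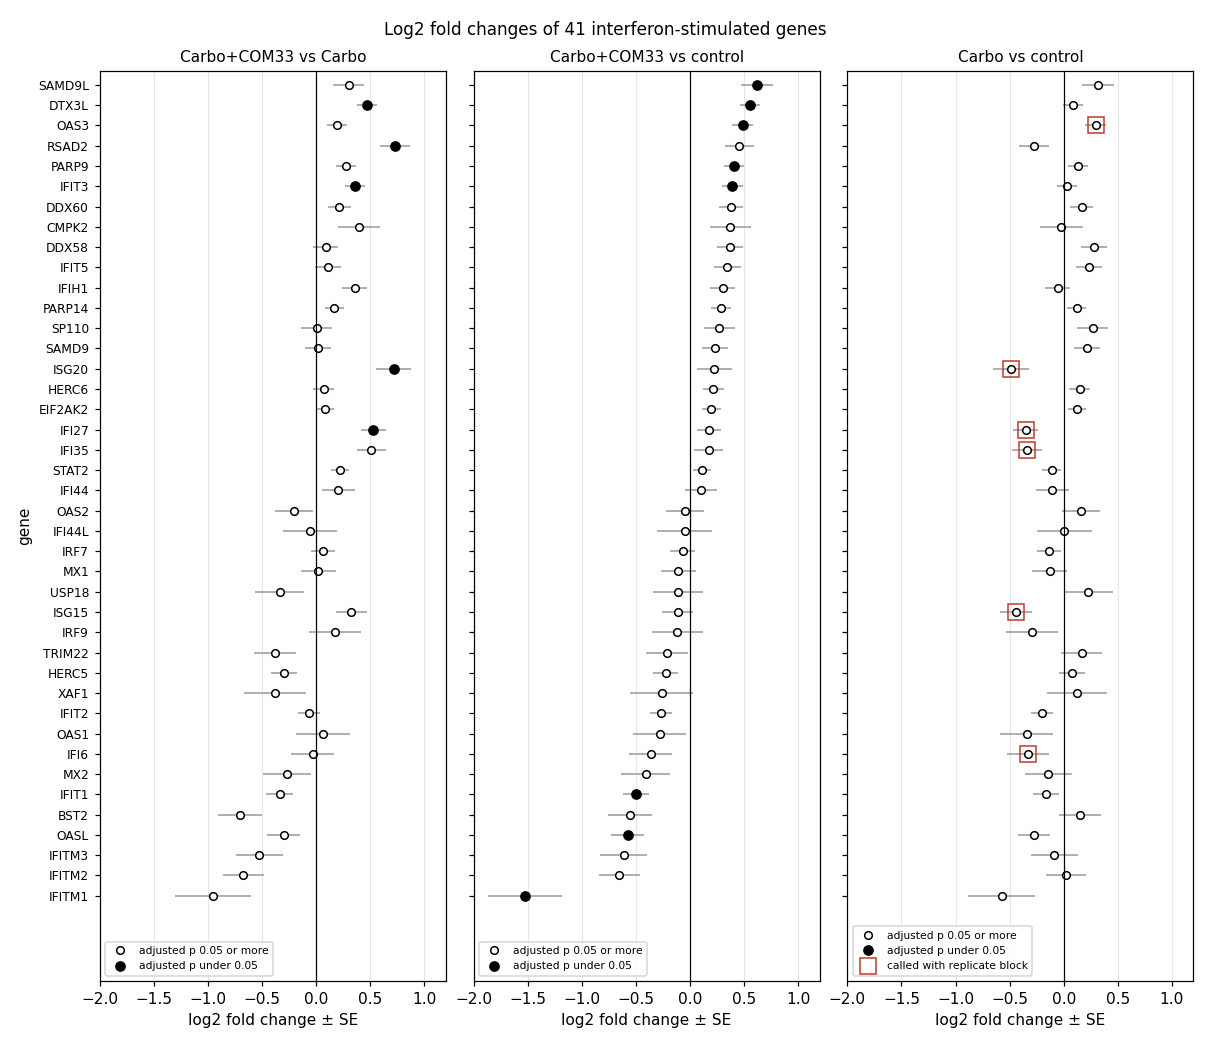
Log2 fold changes with their SE for the 41 members in Carbo+COM33 vs Carbo (left), Carbo+COM33 vs control (middle) and Carbo vs control (right), in the order of the middle panel; filled points have an adjusted p under 0.05 and red squares mark members called when replicate numbers are paired. Values run from -1.53 for IFITM1 to 0.73 for RSAD2, and filled points lie on both sides of 0 in the middle panel only.

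The pair DTX3L and PARP9, whose starts share the element shown above, gave the member with the lowest adjusted p against control. DTX3L is a ubiquitin ligase that works in a complex with PARP9, a macrodomain protein, in interferon responses and in the repair of damaged DNA. DTX3L stood at 125, 120.3 and 104 CPM in Carbo+COM33 1 to 3, against 87.3, 80.0 and 84.1 in Carbo and 80.1, 83.3 and 73.6 in control. Every Carbo+COM33 library was above every other library. The log2 fold change was 0.47 against Carbo (SE 0.0895, adjusted p = 0.0113) and 0.56 against control (SE 0.0897, adjusted p = 0.00542), a fold of 1.39 and 1.47. The call against control held with each single library left out (adjusted p up to 0.0424), while that against Carbo was lost without Carbo 2, Carbo+COM33 1 or Carbo+COM33 2 (adjusted p up to 0.0821).

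PARP9 moved less. Its values were 39.2, 38.6 and 39.6 CPM with Carbo+COM33, against 34.7, 29.3 and 33.1 with Carbo and 28.6, 30.5 and 29.7 in control, and the Carbo+COM33 libraries again lay above all others. It rose against control by a log2 fold change of 0.40 (SE 0.0925, adjusted p = 0.0261), a call lost without any single control library or without Carbo+COM33 1 or 2 (adjusted p up to 0.109), and with limma on FPKM (adjusted p = 0.0682). Against Carbo the value was 0.28 (adjusted p = 0.104). PARP14, a mono-ADP-ribosyltransferase encoded nearby on chromosome 3, was not called, with 0.17 against Carbo (adjusted p = 0.285) and 0.29 against control (adjusted p = 0.0713). Exons of DTX3L and PARP9 overlap by 217 bases on opposite strands, 3.7% of those of DTX3L, and whether the counting used strand is not given in the sources used here.

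RSAD2 encodes viperin, a radical SAM enzyme that makes a chain-terminating nucleotide from CTP, and had the largest positive log2 fold change of any member against Carbo. It stood at 27.8, 25.1 and 22.4 CPM with Carbo+COM33, against 18.1, 14.2 and 13.0 with Carbo and 19.2, 16.9 and 18.7 in control. The Carbo+COM33 libraries lay above all 6 others. RSAD2 rose against Carbo by 0.73 (SE 0.137, adjusted p = 0.0108), a fold of 1.66, but not without Carbo 2, Carbo+COM33 1 or Carbo+COM33 2 (adjusted p up to 0.0797); against control the value was 0.46 (adjusted p = 0.0632). CMPK2, the mitochondrial nucleotide kinase encoded head to head with RSAD2, had values of 0.40 (SE 0.192, adjusted p = 0.245) and 0.37 (SE 0.192, adjusted p = 0.258), at counts of 46 to 71, with every Carbo+COM33 library above the others. In FPKM, RSAD2 exceeded CMPK2 by a ratio of 4.97 ± 0.795 with Carbo+COM33, 3.98 ± 0.934 with Carbo and 4.71 ± 0.753 in control (SD, n = 3 each), which overlap.

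The IFIT genes, whose proteins bind viral RNA or one another, did not move as a family although they lie side by side at chr10:89283694-89421001. IFIT3, which strengthens RNA binding by IFIT1, stood at 43.2, 44.6 and 38.1 CPM with Carbo+COM33, against 33.4, 30.3 and 34.3 with Carbo and 31.5, 31.8 and 32.6 in control. IFIT1, which binds RNA with a foreign 5′ end, stood at 9.20, 9.36 and 9.56 CPM with Carbo+COM33, against 12.6, 12.0 and 10.9 with Carbo and 13.0, 12.9 and 13.9 in control. The Carbo+COM33 libraries were thus above all others for IFIT3 and below all others for IFIT1.

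IFIT3 rose by a log2 fold change of 0.36 against Carbo (SE 0.0945, adjusted p = 0.0455) and 0.39 against control (SE 0.0946, adjusted p = 0.0312). The first call was lost without control 2 or 3, Carbo 2 or 3, or Carbo+COM33 1 or 2 (adjusted p up to 0.216), with only the 2 groups compared (adjusted p = 0.0854) and with limma on FPKM (adjusted p = 0.0566), and the second without any single control library or Carbo+COM33 1 or 2 (adjusted p up to 0.142). IFIT1 fell against control by 0.50 (SE 0.122, adjusted p = 0.0323), a call lost without any single control library, Carbo 2, or Carbo+COM33 1 or 2 (adjusted p up to 0.139) and with no filter on low counts; against Carbo its value was -0.34 (adjusted p = 0.129). The ratio of IFIT3 to IFIT1 in FPKM was 8.21, 8.33 and 6.96 in Carbo+COM33 1 to 3, against 4.61, 4.42 and 5.51 in Carbo and 4.24, 4.31 and 4.11 in control. These ratios, chosen after the values were seen, did not overlap between Carbo+COM33 and either other group. IFIT2 was not called, at -0.07 against Carbo (adjusted p = 0.750) and -0.27 against control (adjusted p = 0.132), and neither was IFIT5, at 0.11 (adjusted p = 0.633) and 0.35 (adjusted p = 0.11).

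**Figure D4:**
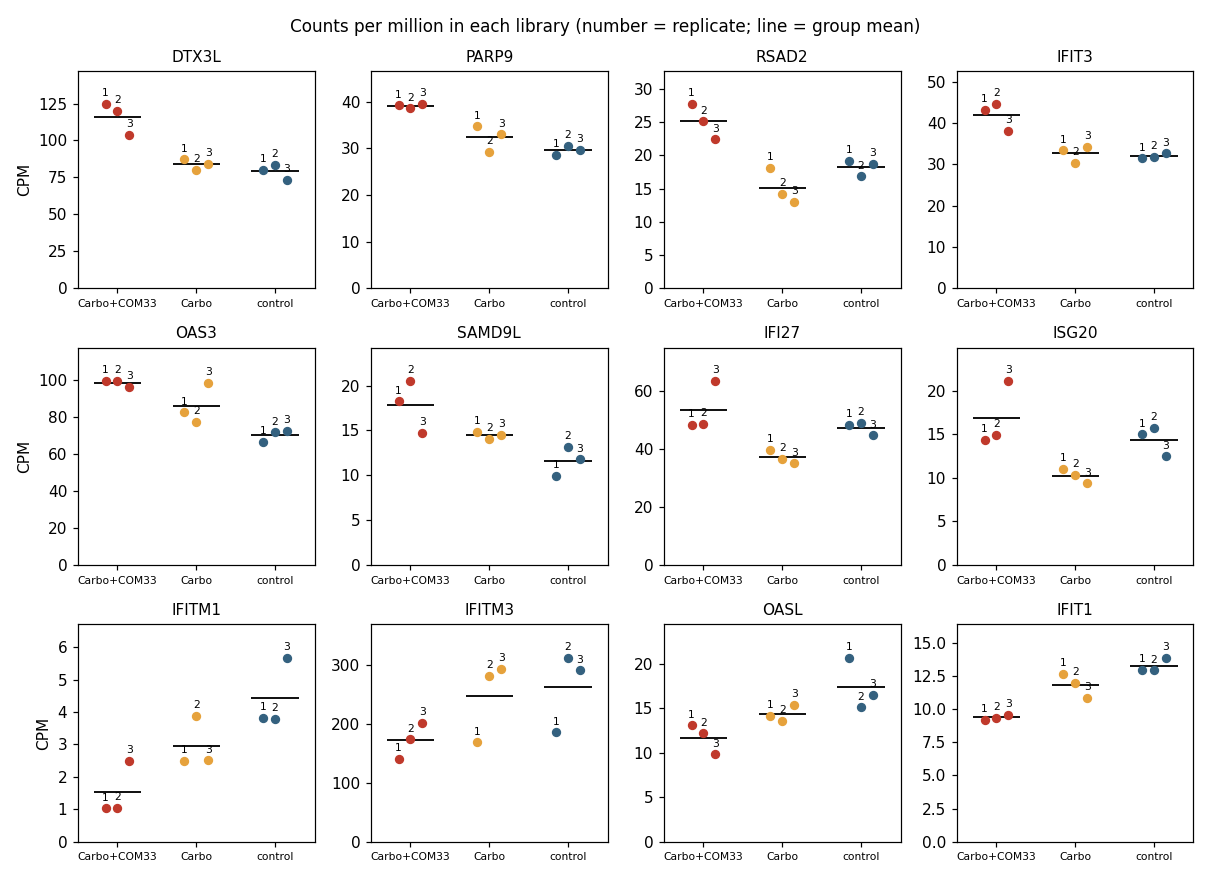
CPM in each library for 12 members, with replicate numbers beside the points and a line at each group mean; groups run Carbo+COM33 (red), Carbo (amber), control (blue), and every y axis starts at 0. DTX3L, RSAD2, PARP9 and IFIT3 are higher and IFIT1 and OASL lower in every Carbo+COM33 library than in any other, while IFITM3 overlaps between groups.

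The OAS genes also parted. OAS enzymes make 2-5A from ATP on binding double-stranded RNA, which activates RNase L, and OAS3 is the member of the family that senses long duplexes. OAS3 stood at 99.6, 99.7 and 96.3 CPM with Carbo+COM33, against 82.6, 77.4 and 98.7 with Carbo and 66.6, 71.7 and 72.5 in control, so that Carbo 3 reached the Carbo+COM33 libraries while no control did. OAS3 rose against control by 0.49 (SE 0.0939, adjusted p = 0.0135), but not without control 2 or 3 or Carbo+COM33 1 or 2 (adjusted p up to 0.0734); against Carbo the value was 0.19 (adjusted p = 0.244). OASL, an enzymatically inactive relative that supports RIG-I, moved the other way.

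OASL stood at 13.1, 12.2 and 9.84 CPM with Carbo+COM33, against 14.2, 13.6 and 15.4 with Carbo and 20.7, 15.1 and 16.6 in control. Every Carbo+COM33 library was below every other. It fell against control by 0.58 (SE 0.151, adjusted p = 0.0417), a call lost without any single library but Carbo 1 or 3 (adjusted p up to 0.124), without control 1 and Carbo 1 (adjusted p = 0.0641), after trends with GC content and length were removed (adjusted p = 0.0677) and with limma on FPKM (adjusted p = 0.0517). OAS1 had 3.17, 4.75 and 4.78 CPM with Carbo+COM33, against 3.90, 3.82 and 4.46 with Carbo and 3.60, 5.00 and 6.84 in control, which overlap in all comparisons. OAS2 was not called, at -0.20 against Carbo (adjusted p = 0.543) and -0.04 against control (adjusted p = 0.909). The ratio of OAS3 to OAS2 in FPKM was 3.52 ± 0.321 with Carbo+COM33, 2.68 ± 0.330 with Carbo and 2.54 ± 0.646 in control (SD, n = 3 each).

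The IFITM genes and BST2, whose products stop viruses at the membrane, had the 4 most negative values against Carbo. IFITM1 stood at 1.03, 1.05 and 2.49 CPM with Carbo+COM33, against 2.49, 3.88 and 2.51 with Carbo and 3.81, 3.80 and 5.68 in control. All Carbo+COM33 libraries were below all controls, and Carbo+COM33 3 met the lower Carbo libraries. IFITM1 fell against control by 1.53 on the log2 scale (SE 0.343, adjusted p = 0.0242), a fold of 0.347; the value was -2.08 without Carbo+COM33 3, and the call was lost without control 2 or 3 or Carbo+COM33 1 or 2 (adjusted p up to 0.130). Against Carbo it was -0.95 (adjusted p = 0.135), and -1.51 without Carbo+COM33 3 (adjusted p = 0.0452). Its counts of 14 to 83 are low and uncertain, because 32.5% of its exonic bases are shared with IFITM2 on the same strand and the IFITM genes are near-identical copies in part.

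IFITM2 stood at 58.3, 67.4 and 73.8 CPM with Carbo+COM33, against 77.9, 120.2 and 120.0 with Carbo and 76.0, 125 and 112 in control, with every Carbo+COM33 library lowest. Its log2 fold changes of -0.67 (SE 0.188, adjusted p = 0.0589) and -0.65 (SE 0.188, adjusted p = 0.0578) missed the threshold in the main fit. Of 22 alternative fits, 12 called IFITM2 lower against Carbo and 11 called it lower against control. IFITM3 stood at 141, 174 and 202 CPM with Carbo+COM33, against 169, 282 and 294 with Carbo and 186, 313 and 292 in control, where Carbo 1 and control 1 lie within the Carbo+COM33 range; its values were -0.53 (adjusted p = 0.175) and -0.61 (adjusted p = 0.108). BST2, or tetherin, which holds budding virions on the cell, stood at 17.2, 21.6 and 21.0 CPM with Carbo+COM33, against 21.1, 37.9 and 38.5 with Carbo and 24.5, 34.0 and 29.4 in control, with values of -0.71 (adjusted p = 0.0643) and -0.55 (adjusted p = 0.118). For each of the 3 genes, replicate 1 was the lowest library in all 3 groups. With the replicate number as a block on 2 groups, IFITM2 and IFITM3 were called lower against Carbo (adjusted p = 0.0221 and 0.0494). The same block called IFITM2, IFITM3 and BST2 lower against control (adjusted p = 0.00709, 0.00681 and 0.0175). Over all genes, however, the replicate numbers of Carbo+COM33 did not pair with those of the other groups. Without Carbo 1, 4 members fell against Carbo and 6 against control, counts to be read beside the ranges over all genes given above.

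ISG20 and IFI27 rose against Carbo and lay near control. ISG20, an exonuclease that degrades single-stranded RNA, stood at 14.4, 14.9 and 21.1 CPM with Carbo+COM33, against 11, 10.3 and 9.34 with Carbo and 15, 15.7 and 12.5 in control. IFI27, a mitochondrial protein linked to apoptosis, stood at 48.5, 48.8 and 63.7 CPM with Carbo+COM33, against 39.8, 36.6 and 35.1 with Carbo and 48.5, 49.2 and 44.7 in control. For both genes Carbo+COM33 3 was the highest of all libraries and the Carbo libraries were the 3 lowest.

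ISG20 rose against Carbo by 0.72 (SE 0.165, adjusted p = 0.0278), a call lost without Carbo 2, Carbo 3, Carbo+COM33 2 or Carbo+COM33 3 (adjusted p up to 0.122) and with limma on FPKM (adjusted p = 0.0861). IFI27 rose by 0.53 (SE 0.113, adjusted p = 0.0195), lost without Carbo 2 or Carbo 3 (adjusted p up to 0.104) and with limma on FPKM (adjusted p = 0.0506). Against control the values were 0.23 for ISG20 (adjusted p = 0.423) and 0.18 for IFI27 (adjusted p = 0.358).

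IFI35, an intracellular protein that binds NMI, followed a like order without passing the threshold in the main fit. Its values were 28.5, 30.0 and 42.1 CPM with Carbo+COM33, against 24.0, 24.8 and 21.8 with Carbo and 29, 29.4 and 30.9 in control. The log2 fold change against Carbo was 0.51 (SE 0.137, adjusted p = 0.0507). With GC and length trends removed, IFI35 was called against Carbo (0.48, adjusted p = 0.0156). With the replicate block alone it was not (0.50, adjusted p = 0.155). With both, IFI35 was called higher against Carbo (0.48, adjusted p = 0.0398) and against control (0.32, adjusted p = 0.0431). ISG15, which is conjugated to other proteins after interferon, had 75.8, 76.9 and 103 CPM with Carbo+COM33, against 81.1, 67.1 and 55.4 with Carbo and 97.3, 95.7 and 83.6 in control. In the main fit ISG15 was called neither against Carbo (0.33, adjusted p = 0.200) nor against control (-0.11, adjusted p = 0.679). With GC and length trends removed, ISG15 was called against Carbo (0.31, adjusted p = 0.0479) and not against control (0.15, adjusted p = 0.322). With the replicate block as well, the value against Carbo was 0.32 and was not called (adjusted p = 0.0916). In both genes Carbo+COM33 3 again was the highest library of all.

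The members that attach ISG15 or remove it were not called. HERC5, the main ligase for ISG15, had -0.30 against Carbo (adjusted p = 0.160) and -0.23 against control (adjusted p = 0.272), and its relative HERC6 had 0.07 (adjusted p = 0.718) and 0.22 (adjusted p = 0.188). USP18, the protease that removes ISG15 and a brake on IFNAR2, had -0.34 (adjusted p = 0.412) and -0.11 (adjusted p = 0.818), at counts of 37 to 81.

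SAMD9L, a translation repressor of cell growth and virus replication, had the largest positive value against control. It stood at 18.3, 20.5 and 14.8 CPM with Carbo+COM33, against 14.9, 14.1 and 14.5 with Carbo and 9.91, 13.2 and 11.8 in control, where the Carbo+COM33 libraries overlap with Carbo and not with control. The rise against control was 0.62 (SE 0.147, adjusted p = 0.0300), a call lost without any single control library, Carbo 2, or Carbo+COM33 1 or 2 (adjusted p up to 0.144) and with limma on FPKM (adjusted p = 0.0760). Its neighbour on chromosome 7, SAMD9, had 0.02 against Carbo (adjusted p = 0.948) and 0.23 against control (adjusted p = 0.257).

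The RNA sensors showed small positive values that were not called in the main fit. DDX58, which encodes RIG-I, the sensor of 5′ triphosphate RNA, stood at 19.8, 20.6 and 18.4 CPM with Carbo+COM33, against 17.1, 17.0 and 21.3 with Carbo and 15.7, 14.6 and 15.1 in control; the log2 fold change was 0.37 against control (SE 0.120, adjusted p = 0.0822). IFIH1, or MDA5, which senses long double-stranded RNA, stood at 16.1, 17.3 and 15.1 CPM with Carbo+COM33, against 12.4, 12.1 and 13.2 with Carbo and 12.8, 12.6 and 13.8 in control. Every Carbo+COM33 library was above every other for IFIH1, with values of 0.36 against Carbo (adjusted p = 0.0913) and 0.31 against control (adjusted p = 0.128). With GC and length trends removed, IFIH1 was called against Carbo (0.41, adjusted p = 0.0310) and not against control (0.26, adjusted p = 0.148). With the replicate block as well, the value against Carbo was 0.42 and was not called (adjusted p = 0.0786). DDX60, a helicase that assists these sensors, had 0.21 (adjusted p = 0.263) and 0.38 (adjusted p = 0.0558), and EIF2AK2, or PKR, the kinase that halts translation on double-stranded RNA, had 0.08 (adjusted p = 0.618) and 0.20 (adjusted p = 0.165).

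The transcription factors of the pathway were not called. STAT2, the subunit of ISGF3 that activates transcription, stood at 82.5, 90.2 and 85.5 CPM with Carbo+COM33, against 80.8, 72.4 and 67.9 with Carbo and 78.5, 82.5 and 78.0 in control, with the Carbo+COM33 libraries highest by a small margin and values of 0.22 (adjusted p = 0.139) and 0.11 (adjusted p = 0.446). IRF9, its DNA-binding subunit, had 1.99, 2.23 and 2.49 CPM with Carbo+COM33, against 2.42, 1.72 and 1.81 with Carbo and 2.5, 2.20 and 2.60 in control, all overlapping; 48.4% of its exonic bases also belong to another annotated gene on the same strand, so that its low count is uncertain. IRF7, which amplifies interferon transcription, had 57.3, 64.5 and 65.7 CPM with Carbo+COM33, against 65.9, 59.8 and 53.3 with Carbo and 71.3, 69.5 and 55.8 in control, and its groups overlapped too; its log2 fold change against control was -0.07, and 0.22 with GC and length trends removed (adjusted p = 0.191).

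The other 8 members were called in neither comparison. They comprise MX1 and MX2, dynamin-like GTPases that trap incoming viruses, the paralogs IFI44 and IFI44L, IFI6, TRIM22, XAF1 and SP110. Against Carbo their log2 fold changes ran from -0.38 for XAF1 and TRIM22 to 0.21 for IFI44, with adjusted p of 0.268 or more. Against control they ran from -0.41 for MX2 to 0.27 for SP110, with adjusted p of 0.263 or more. MX1, often used as a marker of interferon action, had 19.1 ± 3.57 CPM with Carbo+COM33, 18.8 ± 3.37 with Carbo and 20.6 ± 2.51 in control (SD, n = 3 each), which overlap.

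**Figure D5:**
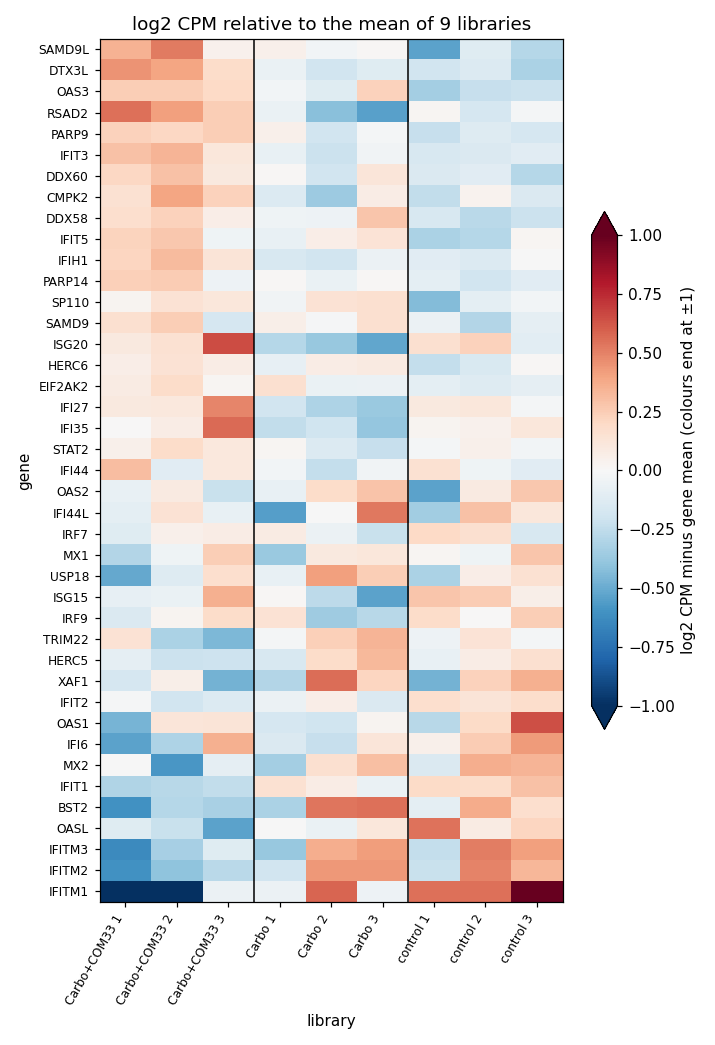
Log2 CPM of each member in each library minus its mean over the 9 libraries (colour, ending at 1 in either direction), with genes ordered by Carbo+COM33 vs control and libraries grouped as Carbo+COM33, Carbo and control. The top genes are red in the Carbo+COM33 columns and the bottom genes blue there, and ISG20, IFI27, IFI35 and ISG15 are reddest in Carbo+COM33 3.

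For carboplatin alone, calls among the members depended on the fit. In Carbo vs control the unpaired edgeR test called 0 of 41 members, and 0 of all genes (0%), with 6 members and 2748 genes at an unadjusted p under 0.05; DESeq2 called 0 members and 76 genes. The median log2 fold change was 0.01 over the members and 0.00 over all genes, with 21 positive and 20 negative members. The groups did not overlap for 6 members higher and 6 lower with Carbo, where 10.8% and 11.7% of all genes did so. Without Carbo 1 the test called 1034 genes, of which 1 was a member, ISG15, which was lower with Carbo; without control 1 and Carbo 1 it called 253 genes and 0 members.

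Libraries of Carbo and control with the same replicate number deviated together, so a fit with the replicate number as a block, on these 6 libraries, stands beside the unpaired one. With the block in a fit of all 9 libraries, where the numbers of Carbo+COM33 do not pair with the others, 0 genes were called. The fit on the 6 libraries called 22.7% of all genes, 11.2% up and 11.5% down, and among the members 1 rose and 5 fell. With trends with GC content and length removed as well, it called 9.99% of all genes, 4.97% up and 5.02% down, with 2 members up and 4 down. Fold changes moved with GC content over all genes: the median log2 fold change of Carbo vs control was 0.15 over tested genes with up to 42.1% GC and -0.19 over those with 56.2% or more.

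OAS3, described above, rose in the paired fit by 0.29 (SE 0.0634, adjusted p = 0.00365), and by 0.37 with the trends removed (adjusted p = 0.000681). ISG20 fell by 0.49 (SE 0.114, adjusted p = 0.00508) and IFI27 by 0.36 (SE 0.0689, adjusted p = 0.00146), and with the trends removed both stayed called (-0.43, adjusted p = 0.0201; -0.33, adjusted p = 0.00398). In each of these 3 genes the direction was the same in 3 of 3 pairs.

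ISG15, IFI35 and IFI6, whose longest annotated transcripts have 63.4%, 58.8% and 56.1% GC, lost their calls when the trends were removed. ISG15 fell by 0.45 in the paired fit (SE 0.0650, adjusted p = 0.00014) and had -0.16 without the trends (adjusted p = 0.105). IFI35 fell by 0.34 (SE 0.0853, adjusted p = 0.00831), against -0.16 without the trends (adjusted p = 0.275). IFI6, a mitochondrial protein that protects from apoptosis, stood at 16.8, 15.9 and 20.2 CPM with Carbo against 19.3, 22.2 and 24.9 in control; it fell by 0.33 (SE 0.0947, adjusted p = 0.0173), against -0.15 without the trends (adjusted p = 0.367). With the trends removed, BST2 rose by 0.32 (adjusted p = 0.0364), IFIT2 fell by 0.30 (adjusted p = 0.0346) and RSAD2 fell by 0.40 (adjusted p = 0.0219), none of which was called in the paired fit with the trends in place (adjusted p = 0.377, 0.113 and 0.0713).

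Interferon genes themselves, IFNE apart, were near the floor of detection. Of 22 type I, II and III interferon genes listed, 9 were in the table and 3 passed the filter, none of which was called in any comparison. IFNB1, the interferon that most cells make first, had counts of 5, 9 and 7 with Carbo+COM33, against 5, 15 and 19 with Carbo and 17, 19 and 10 in control. IFNE, an interferon of the female reproductive tract, had counts of 39, 63 and 50 with Carbo+COM33, against 43, 100 and 109 with Carbo and 45, 69 and 93 in control. IFNL1 had counts of 1 to 13, and the other 6 at most 9. All 3 tested interferon genes had negative log2 fold changes in both Carbo+COM33 comparisons.

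Receptor chains and the signalling proteins next to them were mostly expressed. Of 10 genes listed, 8 were tested and 0 were called in either Carbo+COM33 comparison. By edgeR, 2 had an unadjusted p under 0.05 against Carbo and 4 against control, where 3683 and 3953 of all 16450 genes did. IFNAR1 had 0.25 against Carbo (adjusted p = 0.182) and 0.35 against control (adjusted p = 0.0633). IFNAR2 was listed at counts of 0 to 9 and IFNLR1 at 0 to 6, and IFNAR2 shares 44.2% of its exonic bases with another annotated gene on the same strand, so its count is uncertain. In Carbo vs control, JAK1 rose in the paired fit by 0.24 (adjusted p = 0.000798) and IFNGR1 by 0.26 (adjusted p = 0.00398), and JAK1 also with the trends removed.

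IRF1, a transcription factor of interferon and inflammatory genes, had 109, 99.8 and 106 CPM with Carbo+COM33, against 70.9, 47.7 and 41.5 with Carbo and 81.3, 61.4 and 59.7 in control, and every Carbo+COM33 library was highest. It rose by 0.98 against Carbo (SE 0.170, adjusted p = 0.00756) and 0.64 against control (SE 0.169, adjusted p = 0.0424), and was the 1 gene called of 5 interferon regulatory factors tested. In Carbo vs control it fell in the paired fit by 0.36 (adjusted p = 0.00143), and by 0.30 with the trends removed (adjusted p = 0.00518). Of 16 tested sensors, adaptors and kinases, IFI16, a nuclear DNA sensor, rose by 0.84 (SE 0.111, adjusted p = 0.00226) and 0.82 (SE 0.111, adjusted p = 0.00244), and TLR3, the endosomal receptor for double-stranded RNA, rose against control by 1.52 (SE 0.284, adjusted p = 0.0121); none fell. CGAS, the cytosolic DNA sensor, had counts of 0 to 5. Of 10 brakes on the pathway, 0 were called in either Carbo+COM33 comparison. By edgeR, 2 and 6 had an unadjusted p under 0.05, where 3683 and 3953 of all 16450 genes did. The nearest was SOCS1, an inhibitor of JAK kinases, at 0.94 (adjusted p = 0.0649) and 0.96 (adjusted p = 0.0551). With the replicate block on 2 groups SOCS1 was called against control (0.97, adjusted p = 0.0221). With GC and length trends removed as well, SOCS1 was called in both (0.99, adjusted p = 0.0224, and 1.30, adjusted p = 0.00345). That last fit against control also called SOCS3 higher and IRF2BP2 lower.

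A further 44 interferon-stimulated genes outside the members, of which 40 were tested, had 5 that rose and 0 that fell against Carbo, and 6 that rose and 0 that fell against control; the shares of all genes are those given above. GBP3, a guanylate-binding GTPase, had 43.7, 45.0 and 42.2 CPM with Carbo+COM33, against 27.7, 27.4 and 28.5 with Carbo and 24.4, 24.2 and 23.3 in control, with no overlap between any groups. It rose by 0.65 (SE 0.0850, adjusted p = 0.00221) and 0.86 (SE 0.0858, adjusted p = 0.000615). APOL6, an apolipoprotein L linked to apoptosis, rose by 0.69 and 0.84, TRIM21, an antibody receptor and ubiquitin ligase, by 0.51 and 0.60, and PML, the scaffold of nuclear bodies, by 0.39 and 0.37. UBE2L6, the conjugating enzyme for ISG15, rose against Carbo by 0.48, and NMI and RTP4 against control by 0.50 and 1.62, RTP4 at counts of 3 to 19. The median was 0.18 against Carbo and 0.09 against control over the 40 genes. Values against Carbo ran from -1.45 to 0.71, so the largest change was negative. With the replicate block on 2 groups, 2 rose and 1 fell against Carbo, and 6 rose and 1 fell against control. That block called 3.05% and 6.86% of all genes. The gene that fell was TNFSF10 in both, at -1.45 (adjusted p = 0.0279) and -0.91 (adjusted p = 0.0319).

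Markers of the cell line and of other cells were read in the same libraries. All 8 epithelial and SKOV3 markers were present, led by ERBB2, the receptor amplified in SKOV3, at a mean of 206 FPKM; ERBB2 fell with Carbo+COM33 by 0.57 against Carbo (adjusted p = 0.00508) and KRT7, a keratin, by 1.21 (adjusted p = 0.00893). Of 14 blood and immune markers, 10 were in the table and 2 reached 10 counts in a library; PTPRC, the common leukocyte antigen, had counts of 0 to 6, CD3E 0 to 2 and CD14 0 to 3. The summed FPKM of these markers ran from 1.95 to 2.16 with Carbo+COM33, 0.742 to 1.28 with Carbo and 1.44 to 1.81 in control. The largest contribution was that of ITGAX, an integrin, with mean levels of 1.70 FPKM with Carbo+COM33, 0.515 with Carbo and 0.739 in control, and it rose against Carbo by 1.75 on the log2 scale (adjusted p = 0.0212). Of the list's 2 tested markers, 1 had a positive and 1 a negative value against Carbo, the negative one being -1.51 and not called. Of 8 fibroblast and endothelial markers, 3 reached 10 counts, and their summed FPKM ran from 0.61 to 1.40 with Carbo+COM33, 1.12 to 4.19 with Carbo and 1.09 to 4.19 in control. The part of these markers in the changes of the members was not tested.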

How the data were processed

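Reads per gene were counted and FPKM computed by the authors; per the submitters' processing notes the tools were HISAT2, HTSeq 0.11.2 and DESeq2 1.26.0 on GRCh38, and strand use in counting is not given in the sources used here. The deposited whole-number counts carried the tests, and the deposited FPKM were used for levels between genes. Of 32378 genes, 16450 passed filterByExpr of edgeR 4.0.16 (R 4.3.3) and entered 1 quasi-likelihood fit over all 9 libraries with TMM scaling and Benjamini-Hochberg adjustment. SE is the log2 fold change over the square root of F. Total counts ran from 13851760 to 15533668.

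Members and gene lists were chosen with earlier results of these data known. Genes named in full were those called, the 5 highest in FPKM and the 6 members with the largest changes in each comparison; others were named by role.

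Over 6607 well-expressed genes, deviations of Carbo and control libraries with the same replicate number correlated at 0.824, 0.565 and 0.748, so the pairing, which comes from the data and the shared numbers, gave a second fit for that comparison. Alternatives were DESeq2 1.42.0, limma 3.58.1 on log2(FPKM + 0.1), RLE scaling, no filter, 2 groups only, GC and length trends removed, the replicate block, and single libraries left out. Some genes of the lists are not reported here.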

Additional observations from a re-analysis of the deposited data

How the results depend on the processing

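Over 26 gene results, those called or of the largest change, none reversed direction under the alternatives run: 410 alternative values kept their side of the threshold, 72 gained a call and 90 lost one. Other members near 0 did turn with GC and length trends removed, ISG15 and IRF7 in Carbo+COM33 vs control and IFI44L in Carbo+COM33 vs Carbo. Members also turned in Carbo vs control, among them IRF7 (-0.13 to 0.17), IFITM3 (-0.09 to 0.09) and IFI44L (0.01 to -0.18). Low counts of IFITM1 and IRF9 limit their precision.

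For Carbo vs control the number of genes called was 76 with DESeq2, 928 with no filter on low counts, 3739 with the replicate block, 1643 with the block and GC and length trends removed, and 4338, 1623 and 2842 with the block without replicate 1, 2 or 3 of both groups. Members called higher were 1 with the block, 2 with the block and trends removed, and 4, 1 and 2 with the block without replicate 1, 2 or 3; members called lower were 1 with no filter, 5 with the block, 4 with the block and trends removed, and 7, 4 and 4 with the block without replicate 1, 2 or 3. With the block over all 9 libraries, 0 genes and 0 members were called.

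For Carbo+COM33 the same replicate numbers did not pair the libraries, with correlations of -0.015, 0.138 and -0.388 to Carbo and 0.085, 0.101 and -0.420 to control. Against Carbo, genes called were 1296 with DESeq2, 1876 with no filter, 1304 with trends removed, 502 with the replicate block, 1879, 280 and 1336 with the block without replicate 1, 2 or 3, 1554 with the block over all 9 libraries and 446 with limma. Members called higher were 9 with trends removed, 2 with the block, 0 with the block without replicate 2 and 2 with limma. Members called lower were 2 with DESeq2, 4 with no filter, 1 with trends removed, 1 with only the 2 groups compared, 2 with the block, 3 with the block and trends removed, 3 and 4 with the block without replicate 1 or 3, and 3 with the block over all 9 libraries. The block with trends removed called 7.05% of all genes. For only the 2 groups compared, the count over all genes is not given here, so that member count cannot be set against it. The block on 2 groups called IFITM2 (adjusted p = 0.0221) and IFITM3 (adjusted p = 0.0494) lower, and did not call IFI27 (adjusted p = 0.0844), ISG20 (adjusted p = 0.0870) or IFIT3 (adjusted p = 0.171).

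Against control, genes called were 1934 with no filter, 1760 with the replicate block and trends removed, 310 and 5163 with the block without replicate 2 or 3, 1625 with the block over all 9 libraries and 652 with limma. Members called higher were 8 with DESeq2, 8 with the block and trends removed, 2, 0 and 14 with the block without replicate 1, 2 or 3, and 3 with limma. Members called lower were 5 with no filter, 6 with only the 2 groups compared, 5 with the block, 6 with the block and trends removed, 1 and 9 with the block without replicate 2 or 3, and 6 with the block over all 9 libraries. Counts over all genes are not given here for DESeq2, for only the 2 groups compared and for the block without replicate 1. Those member counts therefore cannot be set against all genes. The block on 2 groups called IFITM2 (adjusted p = 0.00709), IFITM3 (adjusted p = 0.00681) and BST2 (adjusted p = 0.0175) lower, and did not call IFIT1 (adjusted p = 0.0548) or IFIT3 (adjusted p = 0.0544).

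With 1 library left out, genes called ran from 0 to 1034 for Carbo vs control, 120 to 2721 for Carbo+COM33 vs Carbo and 114 to 2208 for Carbo+COM33 vs control. Members called higher ran from 0 to 0, 0 to 9 and 1 to 9 in that order, and members called lower from 0 to 1, 0 to 4 and 0 to 6. Leaving out both control 1 and Carbo 1, an alternative chosen after seeing the data, gave 253, 3368 and 2348 genes, 0, 9 and 8 members higher, and 0, 4 and 5 lower. The cause of these shifts was not tested.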

Other observations

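In the paired fit of Carbo vs control, further interferon-stimulated genes outside the members moved both ways: of 40 tested, 4 rose (GBP2, CD274, NT5C3A and SP100) and 7 fell (TYMP, APOL2, PARP10, OGFR, APOL1, SHISA5 and HELZ2), where 22.7% of all genes were called. With GC and length trends removed, 2 rose and 3 fell. Of 10 brakes on the pathway, PIAS1 and PTPN2 rose and IRF2BP1 and NLRX1 fell in the paired fit. With the trends removed 0 were called, and 2 had an unadjusted p under 0.05 by edgeR, as did 3792 of all 16450 genes.

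The members differed in spread between libraries of a group: the median coefficient of variation of their CPM was 11.3% with Carbo+COM33, 10.5% with Carbo and 9.02% in control.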
